A study of Mus musculus with 11 samples.

Results

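The genes described here are 9 transcripts associated with endothelial tip cells and vessel sprouting: Esm1, Apln, Cxcr4, Adm, Kcne3, Mcam, Trp53i11, Ackr3 and Cd34. They were chosen as a list of names and matched by symbol to the Ensembl gene identifiers of the count data. All 9 were found among 55359 genes, all 9 had reads in 11 of 11 mice, and all 9 passed edgeR's filter on low counts, which retained 17050 genes. The RNA came from CD31-positive, CD45-negative vascular endothelial cells that were sorted at P17 from retinas of C57BL/6 mice (C57BL/6J in the paper's methods) in the oxygen-induced retinopathy (OIR) model, in which pups kept in high oxygen are returned to room air and abnormal vessels grow toward the vitreous. Of the 11 mice, 5 (mice 1, 2, 5, 6 and 9) were injected at P12 with 0.5 µL oncostatin M (OSM), an IL-6 family cytokine, at 100 ng/µL, and 6 (mice 3, 4, 7, 8, 10 and 11) with 0.5 µL PBS. All mice of both groups went through OIR, so there was no group without retinopathy. The paper's methods say that contralateral eyes were given PBS, but do not say if a sequenced mouse had the same injection on both sides, whereas the labels give 1 treatment per mouse. Both retinas of a mouse were pooled, so each value belongs to 1 animal. Mice 1 to 4 formed litter 1, mice 5 to 8 litter 2 and mice 9 to 11 litter 3, and each litter went through its own OIR experiment.

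Sprouting vessels are led by tip cells, which extend filopodia toward VEGF, while the stalk cells behind them divide and form the lumen. Tip cells of the growing mouse retina are known for transcripts of secreted proteins (Esm1, Apln, Adm), of the chemokine receptor Cxcr4, of a potassium channel subunit (Kcne3) and of surface proteins such as Cd34. In OIR, the pathological tufts that form in the hypoxic retina also contain cells with tip cell markers. The labels describe a sort for endothelial cells and not for tip cells, so each value is an average over all sorted cells. In such bulk samples, fewer cells of a type and less RNA per cell cannot be told apart.

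The libraries held 26697990 to 56033479 reads on genes per mouse. Levels are given as CPM, which are counts scaled by the library's total over the genes tested and by its TMM factor. The 9 endothelial markers were Pecam1, Cdh5, Cldn5, Erg, Tie1, Kdr, Egfl7, Esam and Vwf. They summed to 13614 to 17964 CPM in OSM-treated mice and 13475 to 17017 in PBS-treated mice. Markers of other cell types were present at lower sums. The 12 mural cell markers, such as Pdgfrb, Cspg4 and Rgs5, summed to 425 to 857 CPM with OSM and 328 to 1813 with PBS. All 11 that could be tested had a lower estimate with OSM, 2 of them at an unadjusted p under 0.05. Of all genes tested, 51.6% had a lower estimate, and 2.71% were lower at an unadjusted p under 0.05 (edgeR's quasi-likelihood test). Leukocyte markers summed to 0.402 to 20.2 CPM with OSM and 0.488 to 84.9 with PBS. Ptprc, which encodes CD45, had reads in 5 of 11 mice. Of the 6 leukocyte markers that could be tested, 5 had a lower estimate with OSM and 1 a higher one. Their median log2 fold change was -1.71, and 0 had an unadjusted p under 0.05 (edgeR's quasi-likelihood test). Rod markers summed to 188 to 4959 CPM with OSM and 350 to 1360 with PBS. The 10 glial markers, which include Glul and Vim, summed to 1520 to 1953 CPM with OSM and 1565 to 1775 with PBS. The share of each gene in that sum is not given here, so it cannot be read as glial RNA alone. Markers of blood cells summed to 366 to 1142 CPM with OSM and 127 to 614 with PBS. Of the 7 blood markers that could be tested, 6 had a higher estimate with OSM, 5 of them (4 hemoglobin genes and Alas2) at an unadjusted p under 0.05, with a median log2 fold change of 1.10 over the 7. The part of other cells in the results that follow was not tested, except for mural markers as a covariate.

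The sequences just upstream of Apln and Adm are shown because these were the 2 tip cell genes whose levels were correlated over all mice. As described further on, that relation did not pass its test once litter means were removed. They are taken from the RefSeq promoter table for GRCm38.p6, were each found once in GRCm39, and are cut where the GENCODE gene begins. Both are printed 5′ to 3′ on the strand of the gene. Capitals mark TGGGAA, the core bound by the Notch effector Rbpj.
Apln, 205 bases, chrX:47123776-47123980, minus strand: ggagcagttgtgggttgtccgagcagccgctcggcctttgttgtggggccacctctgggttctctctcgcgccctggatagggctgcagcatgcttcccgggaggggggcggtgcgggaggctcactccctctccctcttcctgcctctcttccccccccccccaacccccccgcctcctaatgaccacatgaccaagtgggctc
Adm, 244 bases, chr7:110226614-110226857, plus strand: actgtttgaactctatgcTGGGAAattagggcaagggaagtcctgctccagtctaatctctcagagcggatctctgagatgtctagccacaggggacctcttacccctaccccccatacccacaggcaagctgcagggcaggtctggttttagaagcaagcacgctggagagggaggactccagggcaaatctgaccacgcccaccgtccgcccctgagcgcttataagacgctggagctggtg
Motifs were searched on both strands over the 250 bases before each start site. They were ACGTG, a form of the core of the hypoxia response element, and TGGGAA. The first motif was in 16.6% of 32851 promoters of the table and in 1 of 10 windows of the 9 genes, a window of Kcne3. The second was in 21.6% of all promoters and in 2 of the 10 windows, that of Adm and the other window of Kcne3. Neither motif was in the Apln window. Another form of the hypoxia core, GCGTG, was not searched, and it lies on the opposite strand of the printed Adm sequence. The counts of ACGTG therefore do not show which windows lack the core.

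The level of each gene in the sorted cells was compared as CPM per kilobase of annotated exon, a scale that allows genes of different length to be set side by side. The abundant genes numbered 5. Cd34, a sialomucin of endothelial and progenitor cells, had 184 ± 14.7 CPM per kilobase (SD, n = 11), Adm, the vasoactive peptide adrenomedullin, had 183 ± 70.1 (SD, n = 11), and Mcam, the adhesion molecule CD146 of endothelial and mural cells, had 182 ± 28.3 (SD, n = 11). Apln, the peptide ligand apelin, followed with 142 ± 60.9, and Trp53i11, a membrane protein gene induced by p53, with 101 ± 24.2 (SD, n = 11). Between 0.784% and 1.85% of the 16962 genes placed on this scale were above these 5. The other 4 genes were lower: Cxcr4 with 14.1 ± 4.78, Esm1, the secreted proteoglycan endocan, with 14.0 ± 10.6, Kcne3 with 11.6 ± 3.52 and Ackr3, the scavenger receptor for Cxcl12, with 4.29 ± 2.15 CPM per kilobase (SD, n = 11).

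Neighbours in this order from Cd34 to Trp53i11, and from Cxcr4 to Kcne3, differed by less than the larger of their SDs. Kcne3 and Ackr3 differed by more, although their mice overlapped (the lowest Kcne3 was 6.27 and the highest Ackr3 9.35). No mouse overlapped between the upper 5 and the lower 4 genes, since the lowest value of the upper 5 was 63.1 for Trp53i11 and the highest of the lower 4 was 37.7 for Esm1. The order within the groups depended on the length used. With the length of the canonical transcript alone, a choice made after the data were seen, Cd34 had 891 CPM per kilobase, Trp53i11 328, Adm 212, Mcam 196, Apln 168, Kcne3 25.0, Cxcr4 14.1, Esm1 14.0 and Ackr3 11.3, and the same 5 genes were above the other 4.

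**Figure D1:**
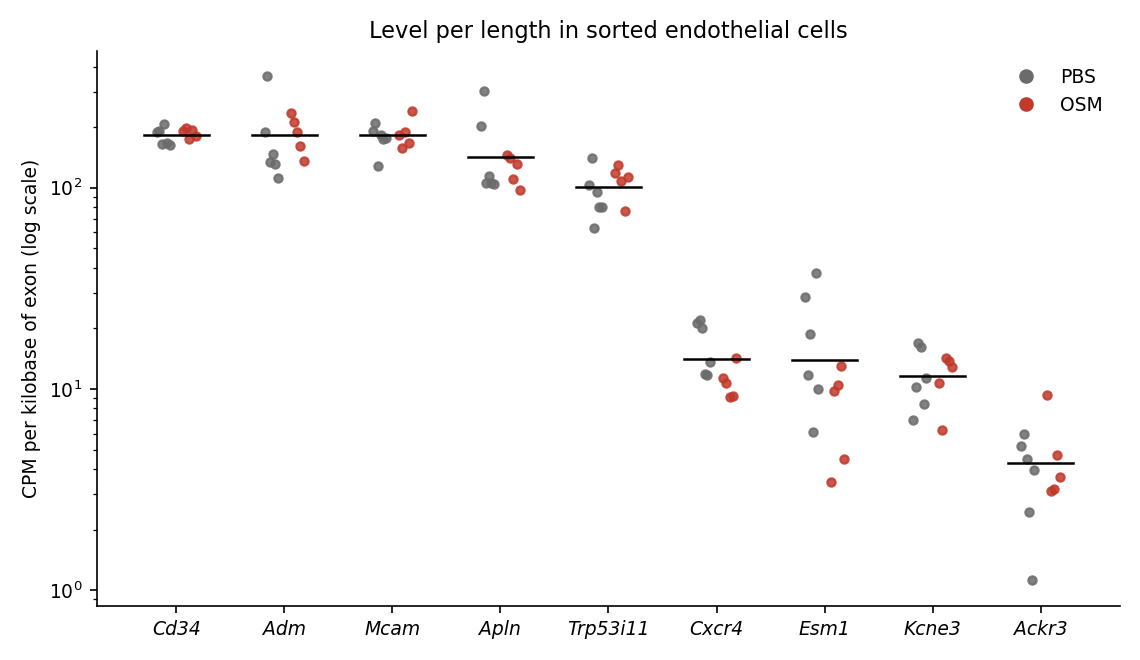
Level of the 9 genes in CPM per kilobase of exon on a log axis, with 1 point per mouse (grey, PBS, n = 6; red, OSM, n = 5) and a line at the mean of all 11 mice. Cd34, Adm, Mcam, Apln and Trp53i11 lie at 63.1 or more in every mouse, and the other 4 genes at 37.7 or less.

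The genes also differed in how far they varied between mice. The coefficient of variation of the normalized counts (TMM-scaled, at the average library size) was 75.4% for Esm1, 50.1% for Ackr3, 43.0% for Apln, 38.4% for Adm, 33.9% for Cxcr4, 30.3% for Kcne3, 24.0% for Trp53i11, 15.6% for Mcam and 8.01% for Cd34. Esm1 spanned 11.0-fold and Ackr3 8.37-fold from the lowest to the highest mouse, against 1.27-fold for Cd34. Among genes of similar mean count, 98.9% varied less than Esm1, 98.3% less than Adm and 97.8% less than Apln, while 10.3% varied less than Cd34. These values are over all 11 mice and include differences between treatments and litters.

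None of the 9 genes passed the test between OSM and PBS. By edgeR's quasi-likelihood test with litter as a term and Benjamini-Hochberg adjustment over 17050 genes, 0 of 9 had an adjusted p under 0.05, against 0% of all genes. At an unadjusted p under 0.05, 1 of 9 (Cxcr4) was lower with OSM, against 2.71% of all genes in that direction and 4.96% in either. Counted in either direction, the number ran from 0 to 3 when 1 mouse was left out (0 without mouse 1, 2, 3, 5 or 7 and 3 without mouse 8). It was 4 without a filter on low counts and 0 with mural markers as a covariate. Trp53i11, which was higher with OSM, was among the 3 and among the 4. Without mouse 4 the number was 2, Adm and Trp53i11, both higher. Esm1, Cxcr4 and Apln had lower estimates with OSM, and the other 6 had higher ones, against 51.6% of all genes with a lower estimate. The median log2 fold change was 0.04 over the 9 genes and -0.01 over all genes tested. DESeq2 with litter called 168 of the 22014 genes it tested, and again 0 of the 9, a number too small to differ from that share. The 2 groups of mice overlapped for each of the 9 genes, whereas 0.223% of all genes had all OSM-treated mice below all PBS-treated mice and 0.182% all above.

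Among the secreted factors, Esm1 (ENSMUSG00000042379, chromosome 13 of GRCm39, 113346021 to 113354632, plus strand) had the lowest estimate. Endocan is induced by VEGF and, in the growing retina, is typical of tip cells. Its normalized counts were 265, 751, 804, 1004 and 348 in OSM-treated mice 1, 2, 5, 6 and 9, and 2209, 910, 1443, 470, 2914 and 774 in PBS-treated mice 3, 4, 7, 8, 10 and 11. All 5 OSM-treated mice were below the PBS median of 1177, but PBS-treated mouse 8 was lower than 3 of them and only mice 1 and 9 were below every PBS-treated mouse. The means were 634 ± 315 (SD, n = 5) and 1454 ± 941 (SD, n = 6). The log2 fold change was -1.21 (SE 0.56, 95% interval -2.45 to 0.04, unadjusted p = 0.0561, adjusted p = 0.955, edgeR's quasi-likelihood test).

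Esm1 was lower with OSM in litter 1, by -1.66 on the log2 scale, and in litter 3, by -2.10, where it rests on 1 OSM-treated mouse. In litter 2 the difference was 0.12. The test of whether the difference itself varied between litters gave an unadjusted p = 0.205 (adjusted p = 0.809, edgeR's quasi-likelihood test). Without any filter on low counts, Esm1 was called with an adjusted p of 0.0224 (edgeR's quasi-likelihood test), and this was its only call among 22 alternatives. With the mean log2 level of the tested mural markers as a covariate, its log2 fold change was -0.54 (unadjusted p = 0.373, edgeR's quasi-likelihood test). The summed mural markers were 512, 425, 634, 857 and 439 CPM in OSM-treated mice 1, 2, 5, 6 and 9. They were 792, 889, 1242, 328, 1079 and 1813 CPM in PBS-treated mice 3, 4, 7, 8, 10 and 11. Esm1 was lowest in mice 1 and 9. It was at 470 in mouse 8, which had the lowest mural sum, and at 774 in mouse 11, which had the highest.

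Apln (ENSMUSG00000037010, chromosome X, 47114019 to 47123775, minus strand) encodes a ligand that tip cells send to Aplnr on neighbouring endothelium. It had 18756, 18049, 14233, 16974 and 12502 normalized counts in OSM-treated mice 1, 2, 5, 6 and 9. In PBS-treated mice 3 and 4 it had 26201 and 38831, and in mice 7, 8, 10 and 11 it had 13623, 14715, 13655 and 13416. Both high values came from the PBS-treated mice of litter 1, and the other 4 PBS-treated mice lay within the range of the OSM group. The means were 16103 ± 2648 with OSM (SD, n = 5) and 20074 ± 10442 with PBS (SD, n = 6), and the log2 fold change was -0.28 (SE 0.16, 95% interval -0.65 to 0.08, unadjusted p = 0.114, adjusted p = 0.984, edgeR's quasi-likelihood test). Within litters 1, 2 and 3 it was -0.79, 0.13 and -0.11. Without litter 1 the estimate was 0.04, without PBS-treated mouse 4 it was -0.12, and with the mural covariate it was -0.13. The test of a difference between litters in the effect gave an unadjusted p = 0.0101 and an adjusted p = 0.593 (edgeR's quasi-likelihood test), where 6.42% of all genes had an unadjusted p under 0.05 and 0% passed after adjustment.

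Adm (ENSMUSG00000030790, chromosome 7, 110226858 to 110229027, plus strand), whose peptide acts on Calcrl with a Ramp partner, had 13111, 11815, 10528, 8897 and 7492 normalized counts in the OSM-treated mice. It had 10551, 19933, 7429, 8155, 7297 and 6203 in PBS-treated mice 3, 4, 7, 8, 10 and 11. The highest value was again that of PBS-treated mouse 4, and the PBS-treated mice of litters 2 and 3 were below OSM-treated mice 1, 2, 5 and 6. With means of 10369 ± 2241 (SD, n = 5) and 9928 ± 5112 (SD, n = 6), the log2 fold change was 0.05 (SE 0.17, 95% interval -0.32 to 0.41, adjusted p = 1, edgeR's quasi-likelihood test). Within litters it was -0.22, 0.31 and 0.16.

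Of the receptors, Cxcr4 (ENSMUSG00000045382, chromosome 1, 128515936 to 128520044, minus strand) had the lowest unadjusted p of the 9 genes. It binds Cxcl12 and is found on tip cells and also on many leukocytes. Its normalized counts were 701, 663, 563, 571 and 886 in the OSM-treated mice, and 1317, 1362, 1249, 740, 724 and 846 in PBS-treated mice 3, 4, 7, 8, 10 and 11. Mice 1, 2, 5 and 6 were below every PBS-treated mouse, whereas OSM-treated mouse 9 was above 3 of them. The means were 677 ± 131 (SD, n = 5) and 1040 ± 301 (SD, n = 6), and the log2 fold change was -0.61 (SE 0.23, 95% interval -1.13 to -0.09, unadjusted p = 0.0249, adjusted p = 0.955, edgeR's quasi-likelihood test).

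Within litters 1, 2 and 3, Cxcr4 differed by -0.97, -0.76 and 0.18 on the log2 scale. When each mouse was left out in turn, the estimate lay between -0.90 (without OSM-treated mouse 9) and -0.46 (without PBS-treated mouse 7), and without litter 1 it was -0.40. Its unadjusted p rose above 0.05 without any 1 of mice 1 to 7 (0.0508 to 0.0758, edgeR's quasi-likelihood test) and to 0.126 with the mural covariate, where the estimate was -0.51. PBS-treated mice 3 and 4, with 1317 and 1362 counts of Cxcr4, had leukocyte marker sums of 29.3 and 84.9 CPM, the highest of all mice. PBS-treated mouse 7, with 1249 counts of Cxcr4, had a sum of 1.16 CPM, and OSM-treated mouse 5, with the lowest Cxcr4, had 20.2 CPM. Ptprc had 22 reads in mouse 3 and 0 in mouse 4. The part of leukocyte RNA in the Cxcr4 difference was not tested.

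Ackr3 (ENSMUSG00000044337, chromosome 1, 90131689 to 90144473, plus strand) takes up Cxcl12 and adrenomedullin without signalling through G proteins. Its counts were 2582 in OSM-treated mouse 1 and 861, 883, 1298 and 1003 in OSM-treated mice 2, 5, 6 and 9, and in the PBS group they ran from 309 in mouse 10 to 1657 in mouse 4 with a median of 1163. Mouse 1 alone was above all PBS-treated mice, and the other 4 lay within their range. The means were 1325 ± 724 (SD, n = 5) and 1068 ± 499 (SD, n = 6), and the log2 fold change was 0.26 (SE 0.36, 95% interval -0.54 to 1.06, adjusted p = 1, edgeR's quasi-likelihood test). Without mouse 1 the estimate was 0.02, and with the mural covariate it was 0.56.

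Kcne3 (ENSMUSG00000035165, chromosome 7, 99825401 to 99836141, plus strand), which modulates potassium channels such as Kcnq1, had 2500, 1464, 3329, 3209 and 3011 normalized counts with OSM and 1635 to 3926 with PBS (median 2516). Mice of litter 2 held the 4 highest values, 2 from each treatment. The means were 2703 ± 761 (SD, n = 5) and 2722 ± 941 (SD, n = 6), with a log2 fold change of 0.00 (SE 0.18, 95% interval -0.39 to 0.40, adjusted p = 1, edgeR's quasi-likelihood test).

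Mcam (ENSMUSG00000032135, chromosome 9, 44045504 to 44054025, plus strand) had 22379, 19440, 23332, 20531 and 29622 normalized counts with OSM and 15860 to 25728 with PBS (median 22179). OSM-treated mouse 9 was the highest of all and PBS-treated mouse 7 the lowest, and the other 9 overlapped. Its means were 23061 ± 3972 (SD, n = 5) and 21804 ± 3294 (SD, n = 6), with a log2 fold change of 0.10 (SE 0.13, 95% interval -0.17 to 0.38, adjusted p = 1, edgeR's quasi-likelihood test). Cd34 (ENSMUSG00000016494, chromosome 1, 194621029 to 194647172, plus strand) had 78288, 81140, 70834, 78858 and 73764 with OSM and 66773 to 84546 with PBS (median 72253). It had the narrowest interval of the 9 genes, with a log2 fold change of 0.04 (SE 0.07, 95% interval -0.11 to 0.19, adjusted p = 1, edgeR's quasi-likelihood test).

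Trp53i11 (ENSMUSG00000068735, chromosome 2, 93000672 to 93032173, plus strand) had 39614, 43479, 35853, 25656 and 37576 normalized counts with OSM. In PBS-treated mice it had 34432, 46876, 21062, 31879, 26695 and 26616. OSM-treated mouse 6 was below 5 of the 6 PBS-treated mice, and PBS-treated mouse 4 was the highest of all. Trp53i11 was the only 1 of the 9 genes with the same sign in every litter, at 0.05, 0.23 and 0.50 on the log2 scale, where 11.3% of all genes were higher in all 3 litters and 12.8% lower. The means were 36436 ± 6663 (SD, n = 5) and 31260 ± 8952 (SD, n = 6), and the log2 fold change was 0.22 (SE 0.14, 95% interval -0.09 to 0.52, unadjusted p = 0.141, adjusted p = 0.994, edgeR's quasi-likelihood test). Without OSM-treated mouse 9 the estimate was 0.12, and with the mural covariate it was 0.09.

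**Figure D2:**
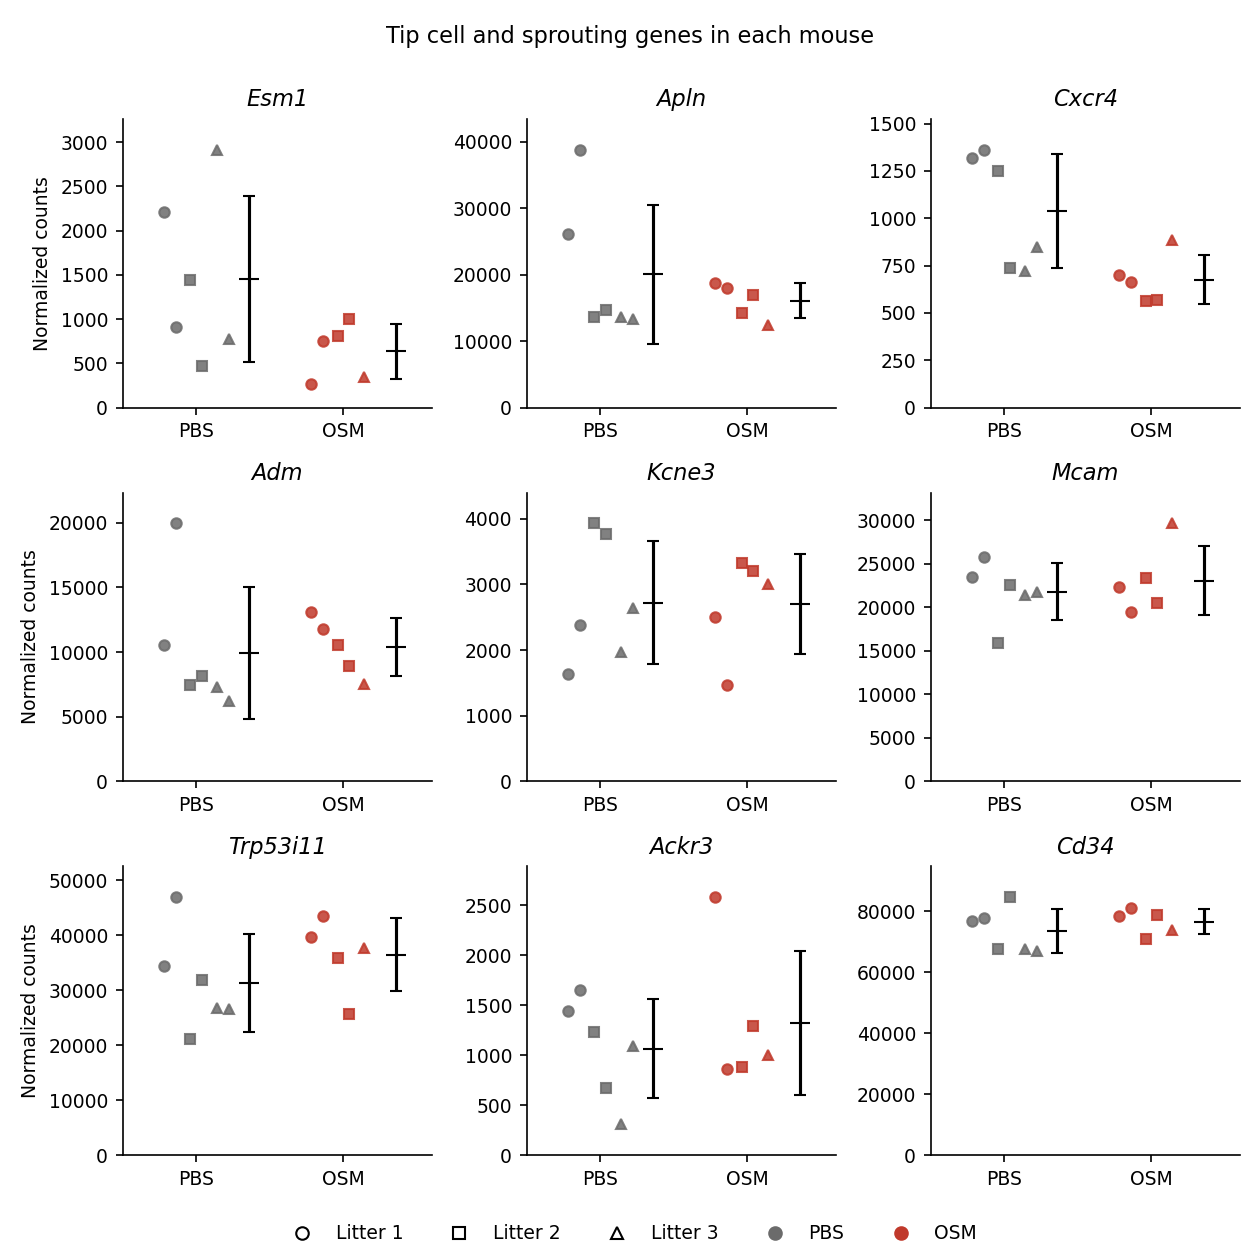
Normalized counts of each gene by treatment, with 1 symbol per mouse (circle, litter 1; square, litter 2; triangle, litter 3) and the mean ± SD beside each group (PBS, n = 6; OSM, n = 5). The groups overlap in all 9 panels, and the highest Apln values, 38831 and 26201, are those of PBS-treated mice 4 and 3 of litter 1.

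**Figure D3:**
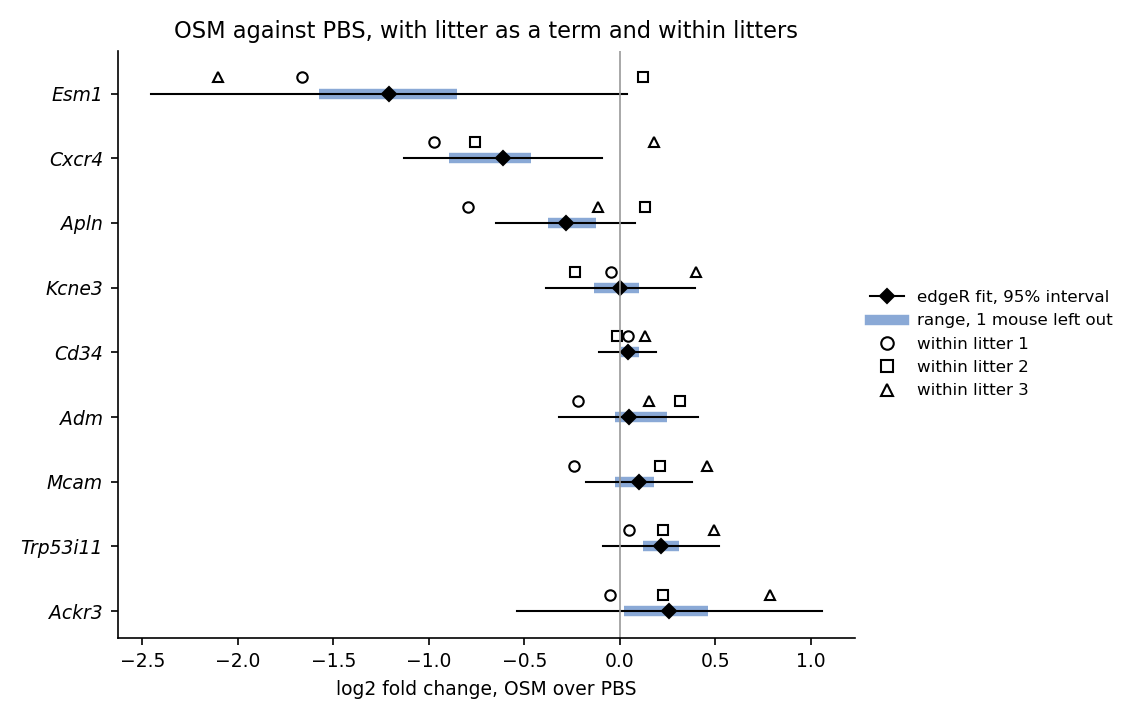
Log2 fold change of OSM over PBS from edgeR (diamonds with 95% interval), the range when 1 mouse at a time is left out (blue bars) and the difference within each litter (open symbols). The interval of Cxcr4, -1.13 to -0.09, is the only 1 of 9 that does not include 0, and only Trp53i11 has all 3 litters on 1 side.

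The litters, each its own OIR experiment, were compared next, and no gene of the 9 passed the adjusted test. In the same edgeR quasi-likelihood fit, 4 of 9 genes had an unadjusted p under 0.05 for a difference between litters, against 10.3% of all genes, and 0 of 9 an adjusted p under 0.05, against 0.0176%. Apln had mean normalized counts of 25459, 14887 and 13191 in litters 1, 2 and 3 (unadjusted p = 0.00122, adjusted p = 0.139). Adm followed the same order, with 13853, 8752 and 6997 (unadjusted p = 0.0015, adjusted p = 0.15). Trp53i11 was highest in litter 1, with 41100 against 28613 and 30296 (unadjusted p = 0.017, adjusted p = 0.355), whereas Kcne3 was highest in litter 2, with 3559 against 1996 and 2541 (unadjusted p = 0.0067, adjusted p = 0.24). All 4 were called when no filter on low counts was set, with adjusted p of 3.76e-10, 1.58e-07, 0.00124 and 0.0171 in this order.

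The summed level of 20 genes of a hypoxia list, which does not hold Apln or Adm, was 8165 to 8912 CPM in litter 1, 6572 to 7405 in litter 2 and 5559 to 6251 in litter 3, so the litters did not overlap. The same order was seen in the most abundant of them, the glucose transporter Slc2a1, with mean normalized counts of 170170, 117630 and 104070 (unadjusted p = 3.87e-05, adjusted p = 0.055). The glycolytic enzymes Pgk1 and Ldha did not follow it, since both were highest in litter 2, with 2581 and 58362 against 2168 and 48727 in litter 1. Slc2a1 weighed most in the sum, with a mean of 133040 normalized counts over all mice against 50860 for Ldha, the next highest. The sum without Slc2a1 was not computed, so the order of the litters cannot be read as that of the whole list. The sum was compared and these genes were picked after their values were seen, and the sum was not tested.

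Over the 36 pairs of the 9 genes, only Apln and Adm had correlated log2 CPM across the 11 mice after adjustment. Pearson's r was 0.863 (permutation p = 0.00134, adjusted p = 0.0482) and Spearman's rho was 0.882 (permutation p = 0.00065, adjusted p = 0.0234), and without mice 3 and 4, the farthest from the median of Apln, r was 0.833. With the litter means removed, r was 0.597 (exact permutation within litters, p = 0.265, adjusted p = 0.68), so the relation did not pass the test once differences between litters were taken out. With the means of litter and treatment both removed, r was 0.774. Each litter has too few mice for its own test. The values of r in litters 1, 2 and 3 were 0.712, 0.215 and -0.447. Adm and Trp53i11 came next, with r = 0.775 (permutation p = 0.00459, adjusted p = 0.0826), and r = 0.633 with litter means removed. With litter means removed, 0 of 36 pairs passed the adjustment, and the highest r was 0.787, for Mcam and Trp53i11.

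No pair with Esm1 passed the adjustment. Its r was 0.307 with Cxcr4, 0.141 with Apln and -0.157 with Adm over the 11 mice. The median r over all 36 pairs was 0.176, and 23 of 36 were positive.

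**Figure D4:**
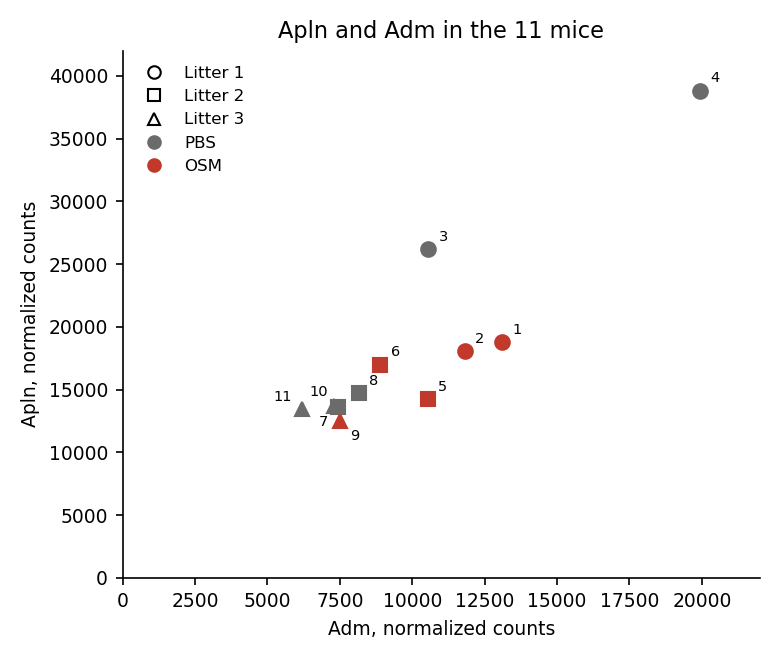
Normalized counts of Apln against Adm in the 11 mice, numbered, by litter (symbol) and treatment (grey, PBS; red, OSM). The 4 mice of litter 1 hold the highest Apln values, and mouse 4 is highest for both genes, at 38831 and 19933.

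**Figure D5:**
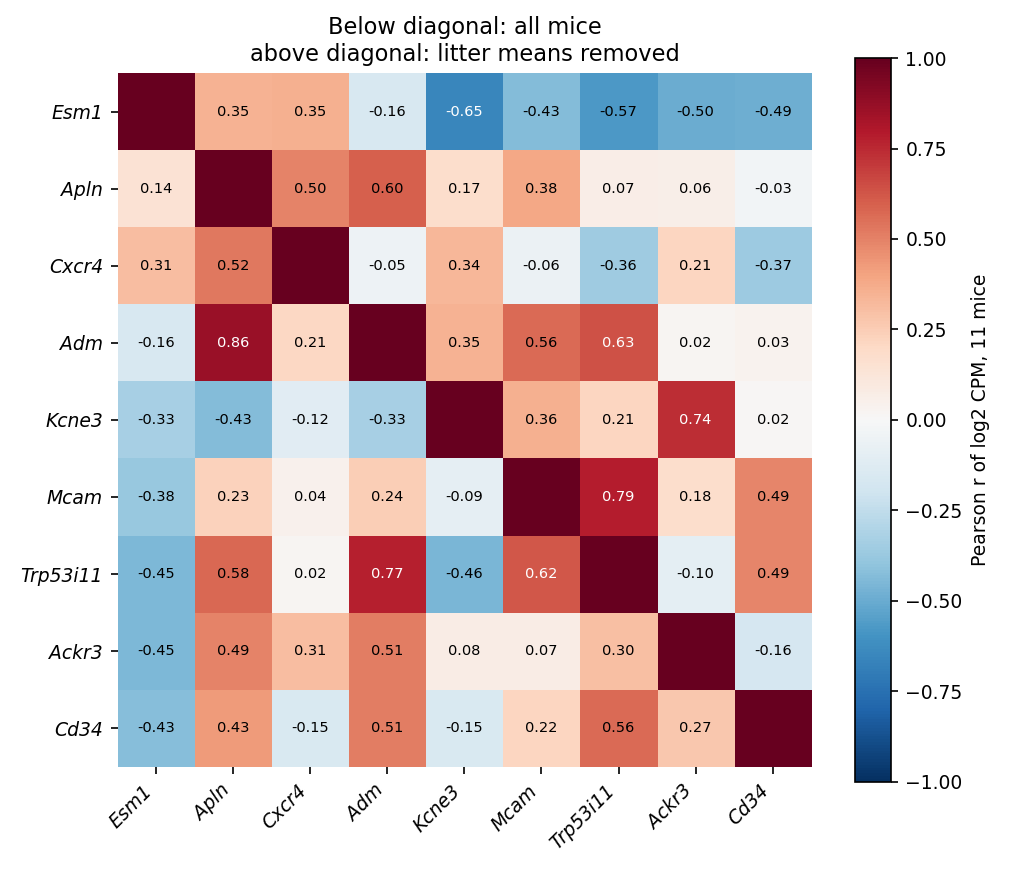
Pearson's r of log2 CPM for each pair of the 9 genes over 11 mice, below the diagonal as measured and above it with the litter means removed. The pair Apln and Adm has 0.863 below and 0.597 above the diagonal.

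The partners of these factors were measured in the same cells. Of 15 ligands, receptors and binding partners, 13 could be tested, 0 were called, 10 had a higher and 3 a lower estimate with OSM, and the median log2 fold change was 0.10. Over all genes tested, 51.6% had a lower estimate and the median was -0.01. Aplnr, the apelin receptor, was abundant, with 517 ± 69.1 CPM per kilobase (SD, n = 11). It had 70742 ± 6502 normalized counts with OSM (SD, n = 5) and 60415 ± 7721 with PBS (SD, n = 6), a log2 fold change of 0.23 (SE 0.10, unadjusted p = 0.0403, adjusted p = 0.955, edgeR's quasi-likelihood test), and it was the only partner with an unadjusted p under 0.05. All OSM-treated mice had 61529 or more, while PBS-treated mouse 8 had 75368 and the other PBS-treated mice up to 61777. Apela, the other ligand of Aplnr, had reads in 2 of 11 mice.

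The adrenomedullin receptor was represented by Calcrl, with 17.3 ± 6.15 CPM per kilobase, and by its partner Ramp2, with 267 ± 23.7 (SD, n = 11), whereas Ramp3 had 6.27 ± 3.22 and Ramp1 had no reads in any mouse. Their log2 fold changes were 0.36 for Calcrl (unadjusted p = 0.0985), 0.15 for Ramp2 (unadjusted p = 0.0662) and -1.03 for Ramp3 (unadjusted p = 0.0921), none of them called by edgeR's quasi-likelihood test. Ramp3 was lowest in OSM-treated mice 1 and 9, as Esm1 was. Cxcl12, the ligand of Cxcr4 and Ackr3, had 34.7 ± 14.5 CPM per kilobase (SD, n = 11) and a log2 fold change of 0.03. Cxcl11, the other chemokine of Ackr3, had reads in 4 mice, 166 in mouse 1, 207 in mouse 9, both OSM-treated, and 2 and 4 in PBS-treated mice 7 and 8. The channel Kcnq1 had a log2 fold change of 0.06, the laminin chain Lama4, which binds Mcam, had -0.13, the sialomucins Podxl and Emcn had 0.10 and 0.01, and the chemokine receptor Ackr1 had -0.01. Adm2, a further ligand of the adrenomedullin receptor, had reads in 1 mouse.

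Other genes of sprouting vessels were read from lists. Of 28 further tip cell genes, 21 had a lower and 7 a higher estimate with OSM, where 51.6% of all genes had a lower one. Of the 28, 0 were called, and the median log2 fold change was -0.06, against -0.01 over all genes. Lower at an unadjusted p under 0.05 were 3 of them, against 2.71% of all genes. The 3 were Plvap, which forms the diaphragms of fenestrae, with -0.85 (unadjusted p = 0.0205), the laminin chain Lamb1 with -0.21 (unadjusted p = 0.0254) and the collagen chain Col4a2 with -0.22 (unadjusted p = 0.0363, edgeR's quasi-likelihood test). Each of them was lower in all 3 litters, as were 12.8% of all genes, but they were picked by p from these same mice. Among the higher ones, Rgcc had 0.15, Sox17 had 0.14 and the VEGF coreceptor Nrp1 had 0.07. Of 14 stalk cell genes, 8 had a lower and 6 a higher estimate, 2 of them (Gja4 and Smad6) lower at an unadjusted p under 0.05, 0 were called and the median was -0.05. The lowest p in each direction belonged to Gja4 (-0.35), Smad6 (-0.77) and the Notch ligand Jag1 (-0.30), and to Id1 (0.16), Cdkn1b (0.47) and Hes1 (0.07).

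Of the 20 hypoxia genes, 14 had a higher and 6 a lower estimate with OSM, 0 were called and the median was 0.07. Ero1a, an oxidase of the endoplasmic reticulum, had 0.59 (unadjusted p = 0.0252, edgeR's quasi-likelihood test), Ankrd37 had 0.32 and Hk2, at 0 to 337 normalized counts, had 3.93 (SE 1.95). P4ha2, Kdm3a and Vegfa had -1.58, -0.34 and -1.08, with Vegfa at 0 to 740 normalized counts. Of 20 proliferation genes, 16 had a lower and 4 a higher estimate, 0 were called and the median was -0.32. The helicase subunit Mcm5 had -0.39 (unadjusted p = 0.0227) and the division marker Mki67 had -1.06 (unadjusted p = 0.041), with 324 ± 169 normalized counts (SD, n = 5) against 700 ± 256 (SD, n = 6). Cenpf had -1.17 (unadjusted p = 0.0849, edgeR's quasi-likelihood test), while Tpx2, Nusap1 and Ccnb2 had 0.15, 0.10 and 0.07. Over all genes tested, 51.6% had a lower estimate with OSM and the median was -0.01. The lowest adjusted p over all these lists was 0.955. The lists were written with earlier results of these data known, so their counts are a description.

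The genes whose level followed Esm1, Apln or Cxcr4 most closely were taken from 10910 genes with a mean of at least 100 normalized counts, by Pearson's r of log2 CPM over the 11 mice after the litter means were removed. For Esm1 they were Tmx3 (r = 0.918), Mcm4 (0.897), Ctsk (0.886), Wdr89 (0.886) and Socs3 (0.884). For Apln they were Vma21 (0.968), Tubgcp3 (0.903), Plekho1 (0.898), Tuba1c (0.898) and Ighmbp2 (0.885). For Cxcr4 they were Dsn1 (0.952), Use1 (0.910), Dclk2 (0.910), Rela (0.904) and Phlda3 (0.883). An r above 0.8 was reached by 44, 34 and 33 of the 10910 genes. The number of unrelated genes that would reach it was not computed, so these counts do not show real partners. Treatment means were left in. With litter means also left in, r of these same genes ran from 0.316 (Socs3) to 0.897 (Mcm4) for Esm1. It ran from -0.339 (Tuba1c) to 0.835 (Ighmbp2) for Apln, and from 0.515 (Use1) to 0.88 (Dsn1) for Cxcr4. Some of the genes thus followed the member only after litter means were removed. These values are a description over 11 mice with no test, and the 3 groups of 5 did not share a gene.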

How the data were processed

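RNA of sorted endothelial cells was sequenced from 11 mice as single reads of PCR-amplified, poly(A)-primed cDNA without molecular identifiers, so copies of a molecule are counted separately. The authors aligned reads to GRCm39 with STAR and assigned them to GENCODE genes with featureCounts, and the deposited values are raw counts per gene and mouse, not normalized. Of 55359 genes, 54749 were in GENCODE vM39, which gave symbols, positions and exon lengths. The column headers of mice 10 and 11, both PBS and litter 3, carry the numbers of the next mouse, and the assignment of each table to its sample was kept.

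Counts were analysed with edgeR 4.0.16 (R 4.3.3). Genes passed filterByExpr, given the design and a minimum of 10 counts, libraries were scaled by TMM, and a robust quasi-likelihood model had litter and treatment as terms. P-values were adjusted by Benjamini-Hochberg, and a call means an adjusted p under 0.05. The litter effect and the interaction of litter and treatment were tested likewise. The SE is the log2 fold change over the root of F. Log2 CPM had a prior count of 2. Correlations used 100000 permutations, two-sided, or all 3456 arrangements within litters, with adjustment over 36 pairs. As alternatives, the litter term, the filter or robust estimation was dropped, a mean of at least 10 counts was required, and size factors or the whole test were taken from DESeq2 1.42.0 (with and without litter). Further ones were leaving out each mouse or litter, within-litter differences, and mural markers as a covariate. Errors are the spread between animals, since counting error covers only reads.

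The members and lists were chosen with earlier results of these data known. The genes named are the 9 members, the detected partners (1 is not reported here), the 3 genes with the lowest p in each direction of 4 lists (further tip cell genes, stalk, hypoxia, proliferation), and the 5 genes most like Esm1, Apln and Cxcr4. Marker genes of other cells are named as examples.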

Additional observations from a re-analysis of the deposited data

Results flagged for a closer look

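Among the 18 groups of mice formed by 9 genes and 2 treatments, 2 held a mouse that stood apart from the rest of its group. The critical values give about 1 in 20 groups by chance for normally distributed values from 1 population. These counts were not on a log scale and were pooled over litters, so that rate need not hold for them. Adm in PBS-treated mouse 4 was at 19933 normalized counts, and the nearest PBS-treated mouse was at 10551, a gap of 0.683 of the whole range against a critical value of 0.625. The same mouse had the highest Apln, Trp53i11 and Cxcr4 of all 11 mice. Ackr3 in OSM-treated mouse 1 was at 2582 normalized counts, and the nearest OSM-treated mouse was at 1298, a gap of 0.746 of the range against a critical value of 0.71. The same mouse had the lowest Esm1.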

How the results depend on the processing

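No gene was called between OSM and PBS by edgeR's quasi-likelihood test, with 846 at an unadjusted p under 0.05. DESeq2 called 168 genes with litter and 88 without, and edgeR without a filter on low counts called 65, Esm1 among them. Without that filter, 625 genes differed between litters in place of 3, and 305 in the effect of treatment between litters in place of 0. The cause was not tested. Leaving out any mouse or litter gave 0 calls between treatments.

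Esm1, Cxcr4, Trp53i11 and Ackr3 kept their direction in all 22 alternatives over several litters. Esm1 ranged from -1.92 without litter 2 to -0.54 with mural markers as a covariate, and from -1.58 (without PBS-treated mouse 8) to -0.85 (without OSM-treated mouse 9) when 1 mouse was left out. Cxcr4 ranged from -0.90 to -0.40. Apln changed sign without litter 1 (0.038). Kcne3, near 0 throughout, was negative without a litter term (-0.010), with DESeq2's size factors (-0.0021), in DESeq2 with litter (-0.0027) and without (-0.015), without mice 1 (-0.11), 3 (-0.062), 9 (-0.13) and 10 (-0.065), without litter 3 (-0.13) and with the mural covariate (-0.050). Adm was negative without mice 3 (-0.025), 5 (-0.025) and 7 (-0.011) and without litter 2 (-0.12), Mcam without mouse 9 (-0.025) or litter 3 (-0.025), and Cd34 with the mural covariate (-0.030). Within single litters, Esm1 (0.12), Apln (0.13), Kcne3 (-0.24) and Cd34 (-0.015) had the opposite sign in litter 2, Cxcr4 in litter 3 (0.18), and Adm (-0.22), Mcam (-0.24), Kcne3 (-0.0455) and Ackr3 (-0.050) in litter 1. With 1 mouse left out, Adm reached 0.25 (without PBS-treated mouse 4) and Kcne3 0.10 (without OSM-treated mouse 2). The number of the 9 genes with a lower estimate ran from 2 to 5. No paired analysis was possible because each mouse number occurs in 1 treatment group only.

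With 5 and 6 mice, the 95% intervals of Esm1 and Ackr3 span more than those of the other 7 genes.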
